A study of Mus musculus with 6 samples.

Results

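The genes described here are 10 markers of injury and repair in kidney tubules, namely Havcr1, Lcn2, Clu, Spp1, Vcam1, Cd44, Sox9, Sox4, Vim and Cd24a. A member was measured by the probe sets annotated to it and to no other gene, and the brightest of these, on average over the 6 arrays, stands for the gene. This gave 9 members of the 18193 genes tested. No probe set was listed to Spp1 (osteopontin) alone in the annotation used, and Spp1 was not analysed here. The 9 members had 31 probe sets in all, 1 for Lcn2 and up to 8 for Sox4.

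Expression was profiled on Affymetrix arrays, 1 per sample, in kidney epithelium that had been dissected by eye. The 3 Fh1 knockout samples were cystic epithelium of mice with a knockout of Fh1, the gene of fumarate hydratase. This enzyme of the tricarboxylic acid cycle makes malate from fumarate. The 3 wild-type samples came from disease-free littermates of the same sex. The sources used here state neither strain, age nor sex, nor the Cre driver or promoter behind the deletion, nor how many animals made up a sample. The spread behind each p-value thus starts from that among the 3 samples of a group, which may in part be technical. The test, limma, pools this spread over both groups and moves it towards the spread typical of all genes. All values are log2 expression values, and differences are knockout minus wild-type.

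A damaged tubule cell loses features of its mature segment, re-expresses genes of the developing kidney, spreads, divides and then matures again. Secreted and shed proteins of that state (Lcn2, the extracellular part of Havcr1, Clu) are used as markers of tubular damage in urine. Surface adhesion molecules (Vcam1, Cd44, Cd24a), progenitor transcription factors (Sox9, Sox4) and the mesenchymal filament protein Vim mark cells that are repairing or that have failed to mature again. Several of these genes are also made outside the tubule: neutrophils carry Lcn2, macrophages and endothelium Vcam1, leukocytes Cd44, fibroblasts Vim and B cells Cd24a.

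All 9 measured members were higher in knockout samples, by 2.46-fold to 62.8-fold. In each of them all 3 knockout values lay above all 3 wild-type values. A gene is called higher or lower where limma's two-sided test gave an adjusted p under 0.05 after Benjamini-Hochberg correction over 18193 genes. All 9 were called, with adjusted p from 1.56e-05 to 0.000836, and all 9 by at least 2-fold. The background was wide: 3928 genes, or 21.6%, were called higher, 27.7% were called lower, 25.7% had knockout values that all lay above the wild-type ones, and 5.44% were called higher by at least 2-fold. The median log2 fold change was 2.40 over the members and -0.11 over all genes. With the median of each array set to 0, calls numbered 3380 higher and 6866 lower, against 3928 and 5031 as deposited, and the 9 members were still called higher. In tissue dissected by eye, a change in the number of cells that make a transcript and a change in RNA per cell cannot be told apart. Nor can genotype be told apart from cyst state, since the knockout samples were cystic and the controls disease-free.

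Fh1 itself read 11.54, 11.60 and 11.61 in knockout samples, against 12.41, 12.34 and 12.22 in wild-type samples, a log2 fold change of -0.74 (SE 0.08, limma adjusted p = 0.000396). The groups did not overlap. The sources do not say whether this probe set falls in the deleted stretch.

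**Figure D1:**
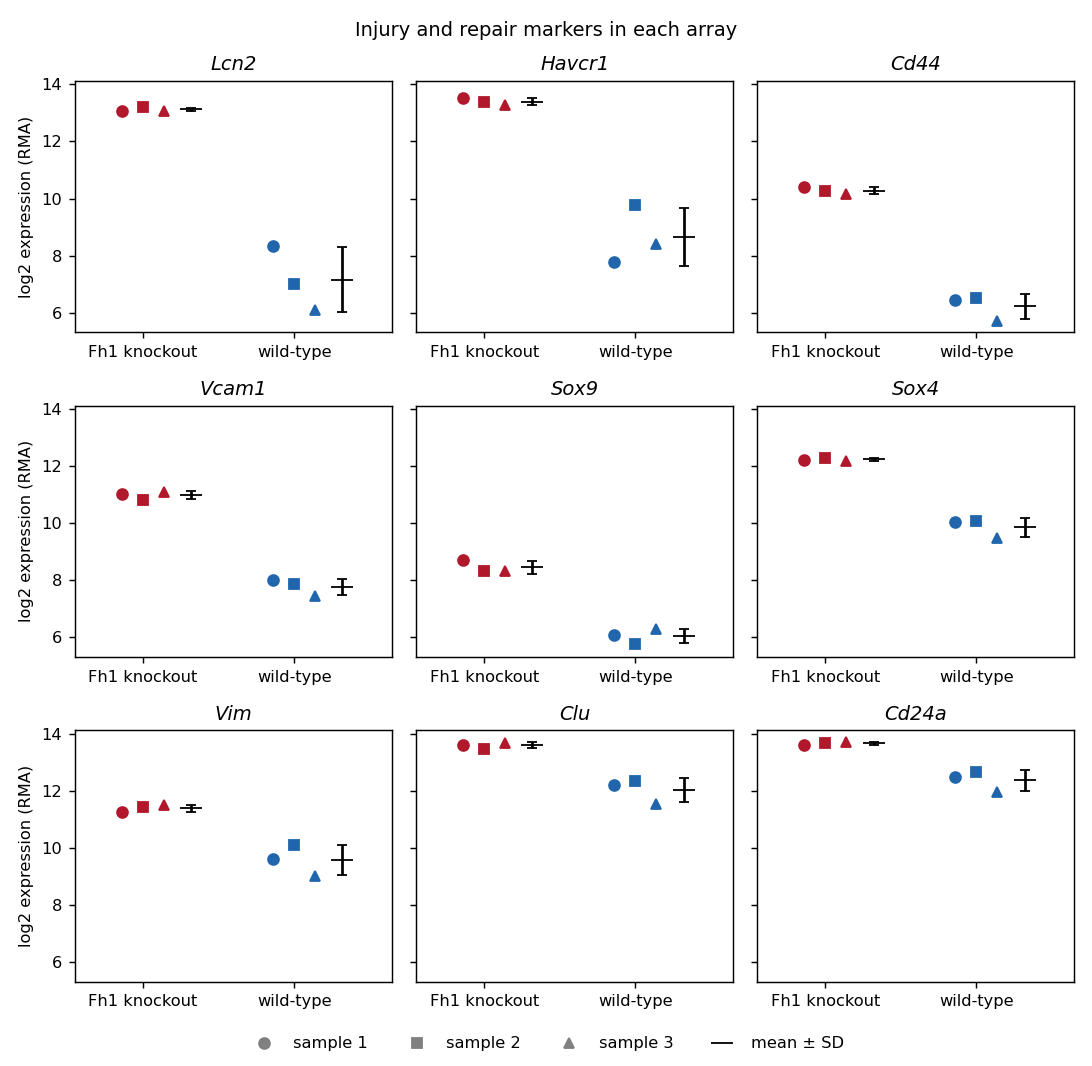
Log2 expression (vertical axis, RMA values) of the 9 members in each of the 3 Fh1 knockout arrays (red, left) and 3 wild-type arrays (blue, right), with the mean ± SD of each group in black and marker shapes for samples 1, 2 and 3. In every panel the 3 knockout points lie above the 3 wild-type points. Wild-type points spread most for Lcn2 (6.10 to 8.35) and Havcr1 (7.78 to 9.76).

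Among the secreted and shed markers, Lcn2 changed most. Lcn2 encodes lipocalin 2 (NGAL), which binds the iron-carrying siderophores of bacteria. Its probe set read 13.08, 13.20 and 13.08 in knockout samples, against 8.35, 7.00 and 6.10 in wild-type samples. The knockout arrays were nearly level with each other, whereas the highest and lowest wild-type arrays differed 4.77-fold. The difference was 5.97 on the log2 scale, or 62.8-fold (SE 0.48, limma adjusted p = 9.27e-05), which placed Lcn2 at rank 2 of 18193 genes by log2 fold change. Wild-type 1 held the highest wild-type value: without it the log2 fold change was 6.57, and without wild-type 3, the lowest, it was 5.45.

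Havcr1 encodes kidney injury molecule 1, a receptor for phosphatidylserine on dying cells that proximal tubule cells put on their surface after damage. It read 13.52, 13.40 and 13.29 in knockout samples, against 7.78, 9.76 and 8.42 in wild-type samples. Wild-type 2 was high among the controls, yet remained 3.53 below the lowest knockout array. The difference of 4.75 on the log2 scale, or 26.9-fold (SE 0.43, limma adjusted p = 0.000152), ranked 5. It was 5.30 without wild-type 2 and 4.31 without wild-type 1. The other probe set of Havcr1 differed by 4.90, with 12.51 to 12.62 in knockout samples and 7.23 to 8.37 in wild-type samples, and wild-type 2 was again the highest control.

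Clu encodes clusterin, an extracellular chaperone that binds misfolded proteins and cell debris. It read 13.61, 13.48 and 13.68 in knockout samples, against 12.21, 12.34 and 11.54 in wild-type samples. The groups stood 1.14 apart at their closest. Clu was 2.95-fold higher (log2 fold change 1.56, SE 0.20, limma adjusted p = 0.000683). Its 4 probe sets gave log2 fold changes of 1.52 to 1.60, and 3 of them carry the suffix that marks probes shared with other transcripts. The representative probe set of Vim, a Cd24a probe set and the Sox4 probe set called lower, described below, also carry it.

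The Lcn2 promoter is shown because this gene had the largest change of the members. Promoters span 250 bases before and 50 after the start of a gene and are RefSeq sequences of GRCm38.p6. Capitals mark matches on either strand to 6 motifs. These were the κB consensus, TGANTCA as the motif of AP-1 factors, TTCNNNGAA as the motif of STAT factors, TATAAA as the TATA box, CCAAT as the CCAAT box, and GGGCGG as the GC box. The Lcn2 window, on the minus strand at chr2:32387690-32387989, held 1 κB match that begins 43 bases before the start site and 1 GC box that begins 94 bases before it. Of 32851 promoter windows, 11.2% held a κB match and 35.7% a GC box.
Lcn2: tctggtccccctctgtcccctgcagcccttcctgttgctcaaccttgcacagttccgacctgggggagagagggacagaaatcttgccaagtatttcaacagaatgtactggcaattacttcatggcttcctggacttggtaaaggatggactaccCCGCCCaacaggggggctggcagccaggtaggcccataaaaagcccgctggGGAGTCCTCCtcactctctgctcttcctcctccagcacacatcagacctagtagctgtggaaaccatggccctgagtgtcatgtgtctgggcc

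Of the surface molecules, Cd44 and Vcam1 changed more than Cd24a. Cd44 encodes a receptor for hyaluronan, a sugar polymer of the matrix, and for osteopontin, the product of Spp1. It read 10.41, 10.25 and 10.16 in knockout samples, against 6.43, 6.51 and 5.71 in wild-type samples. The closest arrays of the groups were 3.64 apart. The difference was 4.05 on the log2 scale, or 16.6-fold (SE 0.20, limma adjusted p = 2.1e-05), at rank 10. The other Cd44 probe sets did not all follow: log2 fold changes were 3.82 and 2.33 in those called higher. The dimmest, which read 3.44 to 3.76 in knockout samples and 3.53 to 3.70 in wild-type samples, gave -0.01 and was not called (limma adjusted p = 0.943 over all probe sets). With the mean of the 4 probe sets the log2 fold change of Cd44 was 2.55.

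The Cd44 promoter, shown as that of the surface molecule with the largest change, lies on the minus strand at chr2:102901616-102901915. It held 1 GC box that begins 3 bases after the start site, and no match to the other 5 motifs.
Cd44: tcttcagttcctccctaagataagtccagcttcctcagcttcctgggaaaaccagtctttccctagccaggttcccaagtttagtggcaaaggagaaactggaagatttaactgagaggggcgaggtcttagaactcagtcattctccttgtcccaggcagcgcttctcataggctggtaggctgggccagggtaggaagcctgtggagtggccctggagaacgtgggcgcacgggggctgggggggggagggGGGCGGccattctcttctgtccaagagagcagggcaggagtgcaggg

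Vcam1 encodes vascular cell adhesion molecule 1, which holds leukocytes through the integrin of Itga4 and Itgb1 and also marks proximal tubule cells that failed to mature again after injury. It read 11.03, 10.83 and 11.09 in knockout samples, against 7.99, 7.86 and 7.46 in wild-type samples. It was 9.26-fold higher (log2 fold change 3.21, SE 0.15), with the smallest adjusted p of the members (limma, 1.56e-05). Both groups were tight: the SD was 0.14 in knockout samples and 0.28 in wild-type samples (n = 3 each). Its other 2 probe sets gave log2 fold changes of 2.68 and 2.16, and both were called.

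Cd24a encodes a small, heavily glycosylated protein on the surface of epithelial progenitors and immature lymphocytes. It read 13.61, 13.69 and 13.70 in knockout samples, against 12.49, 12.66 and 11.96 in wild-type samples. This was the smallest change of the members, 2.46-fold (log2 fold change 1.30, SE 0.17, limma adjusted p = 0.000806), and its groups were the closest, 0.95 apart. Its 3 probe sets were alike, at 1.21 to 1.41 on the log2 scale.

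The transcription factors Sox9 and Sox4 differed by like amounts. Sox9 is a factor of the developing nephron that tubule cells switch on again after damage. Its values were 8.71, 8.32 and 8.32 in knockout samples, against 6.08, 5.78 and 6.28 in wild-type samples. Knockout 1 was the highest array, and the groups did not overlap. The difference was 2.40 on the log2 scale, or 5.29-fold (SE 0.16, limma adjusted p = 4.35e-05). The second Sox9 probe set gave 1.46 and was called. The dimmest, at 4.01 to 4.09 in knockout samples and 3.77 to 3.89 in wild-type samples, gave 0.19 and was not called (limma adjusted p = 0.0874 over all probe sets). With the mean of the 3 probe sets the log2 fold change was 1.35.

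Sox4, a SoxC factor of progenitor cells, read 12.22, 12.30 and 12.19 in knockout samples, against 10.03, 10.08 and 9.46 in wild-type samples. Its SD was 0.05 in knockout samples and 0.34 in wild-type samples (n = 3 each). The difference was 2.38 on the log2 scale, or 5.20-fold (SE 0.16, limma adjusted p = 4.86e-05). Of the 8 Sox4 probe sets, 5 were called higher, at 1.38 to 2.57. The 3 dimmest, with means under 6.2 in both groups, gave 0.17, -0.22 and -0.27. Of these the second was called lower (limma adjusted p = 0.0481 over all probe sets), with 5.76 to 5.77 in knockout samples and 5.93 to 6.01 in wild-type samples. With the mean of the 8 probe sets the log2 fold change of Sox4 was 1.27. Over all members, 26 of 31 probe sets were called higher, 1 lower and 4 not called, where 20.6% of 34945 probe sets were called higher and 24.8% lower.

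The Sox4 promoter, shown for the factor with the most probe sets, lies on the minus strand at chr13:28953650-28953949. It held 4 CCAAT matches, which begin 171, 104, 47 and 8 bases before the start site and of which 3 are on the opposite strand. CCAAT was found in 37.4% of promoter windows.
Sox4: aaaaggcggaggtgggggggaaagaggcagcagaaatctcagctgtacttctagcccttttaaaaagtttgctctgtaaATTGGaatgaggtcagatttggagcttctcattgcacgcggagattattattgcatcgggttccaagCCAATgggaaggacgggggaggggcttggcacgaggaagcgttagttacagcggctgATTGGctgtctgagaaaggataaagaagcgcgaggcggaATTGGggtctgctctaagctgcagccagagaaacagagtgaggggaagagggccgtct

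**Figure D2:**
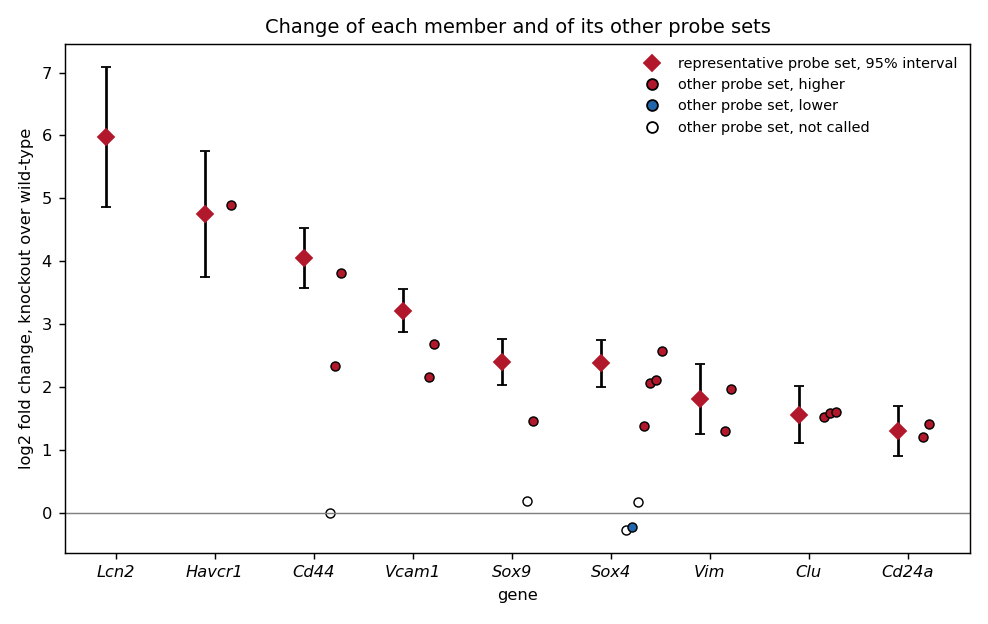
Log2 fold change, knockout over wild-type (vertical axis), of the representative probe set of each of the 9 members (diamonds, with limma's 95% intervals) and of their other probe sets (circles). Red marks probe sets called higher, blue the 1 called lower and white those not called. Representative values fall from 5.97 for Lcn2 to 1.30 for Cd24a, and the probe sets near 0 belong to Cd44, Sox9 and Sox4.

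Vim encodes vimentin, the intermediate filament protein of mesenchymal cells that injured tubule cells also make. It read 11.25, 11.42 and 11.50 in knockout samples, against 9.61, 10.09 and 9.03 in wild-type samples. The groups were 1.16 apart at their closest, and wild-type 2 was the highest control. Vim was 3.51-fold higher (log2 fold change 1.81, SE 0.24, limma adjusted p = 0.000836). Its other 2 probe sets gave 1.29 and 1.97, both called. The Vim promoter is shown as that of the filament gene. It lies on the plus strand at chr2:13574061-13574360 and held a TATA box that begins 32 bases before the start site. It also held CCAAT matches 196 and 94 bases before it and 3 κB matches, 2 of which overlap each other. A TATA box was found in 13.6% of promoter windows. Neither the AP-1 motif (7.81% of windows) nor the STAT motif (8.30%) was found in the 4 promoters shown. Havcr1, whose promoter is not shown because it has 3 start sites, held 1 AP-1 match, which begins 10 bases after 1 of these starts.
Vim: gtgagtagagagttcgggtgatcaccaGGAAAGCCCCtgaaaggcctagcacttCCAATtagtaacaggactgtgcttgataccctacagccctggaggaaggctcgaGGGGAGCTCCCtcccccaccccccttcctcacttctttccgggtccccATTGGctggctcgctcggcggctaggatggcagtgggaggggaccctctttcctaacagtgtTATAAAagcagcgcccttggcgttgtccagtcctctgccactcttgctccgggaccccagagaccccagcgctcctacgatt

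In order of log2 fold change, the members ran Lcn2, Havcr1, Cd44, Vcam1, Sox9, Sox4, Vim, Clu and Cd24a. Limma's 95% intervals overlapped between 6 of the 8 pairs of neighbours. They were apart only between Cd44 (3.58 to 4.53) and Vcam1 (2.87 to 3.55), and between Vcam1 and Sox9 (2.04 to 2.77). The difference of 0.02 between Sox9 and Sox4 was far within either interval. Lcn2 (4.86 to 7.09) and Havcr1 (3.75 to 5.75) differed by 1.22, and their intervals overlapped in part. The order depends on the probe sets that represent each gene, since the mean of all probe sets lowered Cd44, Sox9 and Sox4 to 2.55, 1.35 and 1.27.

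The members varied less among knockout samples than among wild-type samples. The SD of the knockout samples was below that of the wild-type samples in all 9 members, with medians of 0.115 and 0.43 on the log2 scale. The same direction held for 69.0% of all genes, whose median SDs were 0.0857 in knockout and 0.138 in wild-type samples. The widest range among knockout arrays was that of Sox9, 0.39, whereas wild-type arrays ranged over 2.25 for Lcn2, 1.98 for Havcr1 and 1.07 for Vim. Wild-type 3 was the lowest control for 7 members, all but Havcr1 and Sox9, and wild-type 2 the highest for 6. Over all genes wild-type 3 was the lowest control in 34.0%. Without wild-type 3 the log2 fold changes of these 7 members were smaller, for example 1.54 for Vim and 1.09 for Cd24a, and each remained called.

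**Figure D3:**
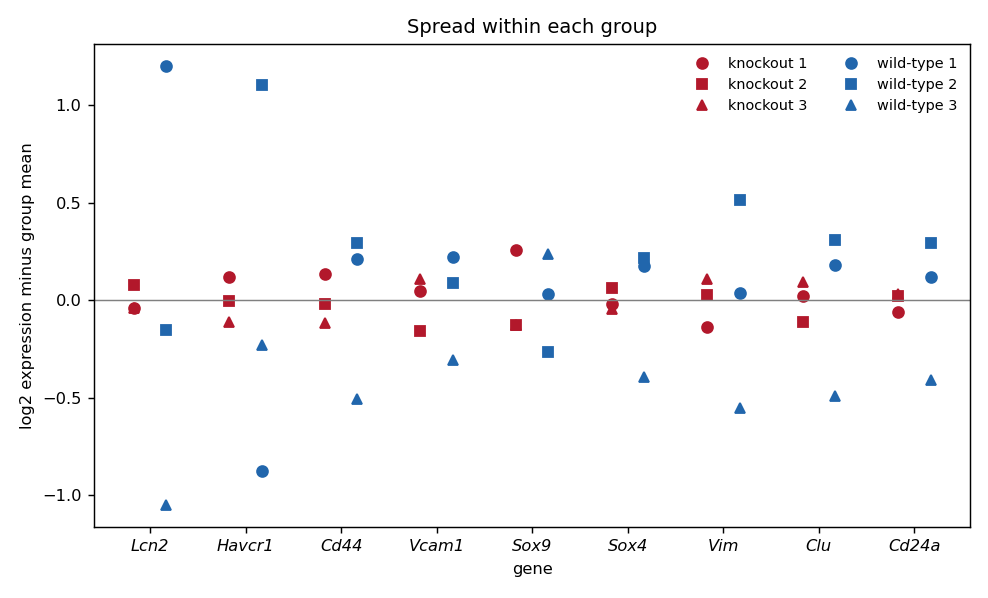
Log2 expression of each member minus the mean of its own group (vertical axis) in knockout arrays (red) and wild-type arrays (blue), with marker shapes for samples 1, 2 and 3. Knockout points stay within 0.26 of their mean. Wild-type 1 lies 1.20 above its mean for Lcn2, wild-type 2 lies 1.10 above for Havcr1, and wild-type 3 is the lowest control for 7 members.

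Other genes of tubular injury moved with the members, where 21.6% of all genes were called higher. Among 19 measured genes for filaments, surface and developmental proteins of injured tubules, 18 were higher and none was lower, with a median log2 fold change of 2.29. The keratin gene Krt23, named after its value was seen, did not pass (-0.03, limma adjusted p = 0.858). Dcdc2a, a microtubule-binding protein, rose 11.7-fold, and Anxa3, a calcium-dependent membrane-binding protein, 9.85-fold. Krt19, a keratin of simple epithelia, rose 8.66-fold, and Fgg, the gamma chain of fibrinogen, 7.87-fold (limma adjusted p = 8.26e-06 to 0.00101 for these 4). Krt19 read 9.52, 9.76 and 10.12 in knockout samples, against 7.62, 6.58 and 5.86 in wild-type samples. As with Lcn2, wild-type 1 was the highest and wild-type 3 the lowest control for Krt19.

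Genes for growth factors, chemokines, early response factors and their receptors moved less. Of 16 measured, 11 were higher, none was lower and 5 did not pass, with a median of 0.79. For comparison, 21.6% of all genes were called higher and 27.7% lower. Tnfrsf12a, the receptor for the cytokine TWEAK, rose 5.10-fold, and Plaur, the urokinase receptor, 4.13-fold. Il34, a ligand of the macrophage receptor Csf1r, rose 3.51-fold, and the stress-induced transcription factor Atf3 2.72-fold (limma adjusted p = 5.77e-06 to 0.00184 for these 4). The NF-κB and STAT3 pathways drive Lcn2 and Vcam1 in inflamed tissue. Of their 17 measured genes 13 were higher, none was lower and 4 did not pass (median 1.08). The part of these pathways in the members' changes was not tested. Socs3, the inhibitor that STAT3 induces, rose 4.75-fold, the NF-κB inhibitor Nfkbie 3.90-fold, the oncostatin M receptor Osmr 3.72-fold and the NF-κB subunit Relb 2.79-fold (limma adjusted p = 3.69e-05 to 0.000121). With the mean of its 3 probe sets, the log2 fold change of Osmr was 0.87 in place of 1.90.

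Receptors, ligands and partners of the members showed no common direction. Of 24 measured, 5 were higher, 5 lower and 14 did not pass, with a median of 0.15. Over all genes 21.6% were called higher and 27.7% lower. With the mean of all probe sets 8 of the 24 were higher. Lower members of the list numbered 2 without knockout 1 or without knockout 3, and 3 without knockout 2 or without wild-type 3. Lrp2 (megalin), which takes up filtered Lcn2 in the proximal tubule, fell 2.90-fold (limma adjusted p = 5.12e-05). Lrp2 read 11.76, 11.56 and 11.75 in knockout samples, against 13.12, 13.39 and 13.15 in wild-type samples. Slc22a17, described as another Lcn2 receptor and named here after its values were seen, did not pass (log2 fold change -0.36, limma adjusted p = 0.0742). Msn, moesin, which ties Cd44 to actin, rose 2.11-fold. Itga4, a subunit of the Vcam1 receptor, rose 1.99-fold, and Itgav, a subunit of osteopontin receptors, 1.55-fold. With the mean of all their probe sets these integrins had log2 fold changes of 0.34 and 0.18, against 0.99 and 0.63, and Itgav was no longer called. Vldlr, a lipoprotein receptor that binds clusterin, rose 1.55-fold but was not called without knockout 3 (limma adjusted p = 0.0526). Its 6 probe sets averaged a log2 fold change of 0.33 against 0.64. Hyal2, a hyaluronidase, fell 1.39-fold but was not called without knockout 2 (limma adjusted p = 0.0608).

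Among 11 other Sox genes, 2 were higher, 4 lower and 5 did not pass, with a median of -0.23. Over all genes 21.6% were called higher and 27.7% lower. Sox11, the SoxC relative of Sox4, rose 2.62-fold (limma adjusted p = 0.00082), and its 6 probe sets were all called higher. It read 7.56, 7.11 and 7.71 in knockout samples, against 5.90, 5.95 and 6.36 in wild-type samples. The remaining Sox calls were weak. Sox17 rose 1.38-fold but was not called without any 1 of the knockout samples, nor with mean probe sets, centring or quantile normalization. Sox10 fell 1.41-fold but was not called without knockout 1, knockout 3, wild-type 1 or wild-type 3, and Sox6 fell 1.33-fold but was not called without knockout 2. The lower Sox genes numbered 1 without knockout 1 or wild-type 1, and 2 without knockout 2.

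Among 10 genes of other intermediate filaments, the nuclear lamina and their linkers, 4 were higher, 2 lower and 4 did not pass (median 0.30). The shares over all genes were 21.6% higher and 27.7% lower. The simple epithelial keratins Krt18 and Krt8 rose 6.67-fold and 2.67-fold, and Plec, the linker plectin, rose 2.89-fold. Both keratins were also counted above among the filament, surface and developmental genes of injured tubules. Lmna, of the nuclear lamina, rose 1.72-fold, although 1 of its 5 probe sets was called lower. The mean of all probe sets gave log2 fold changes of 0.76 for Plec and 0.38 for Lmna, against 1.53 and 0.78. Gfap and Prph, filament genes of glia and peripheral neurons, fell 1.42-fold and 1.34-fold. With the mean of its 3 probe sets the log2 fold change of Gfap was -0.27, against -0.51.

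**Figure D4:**
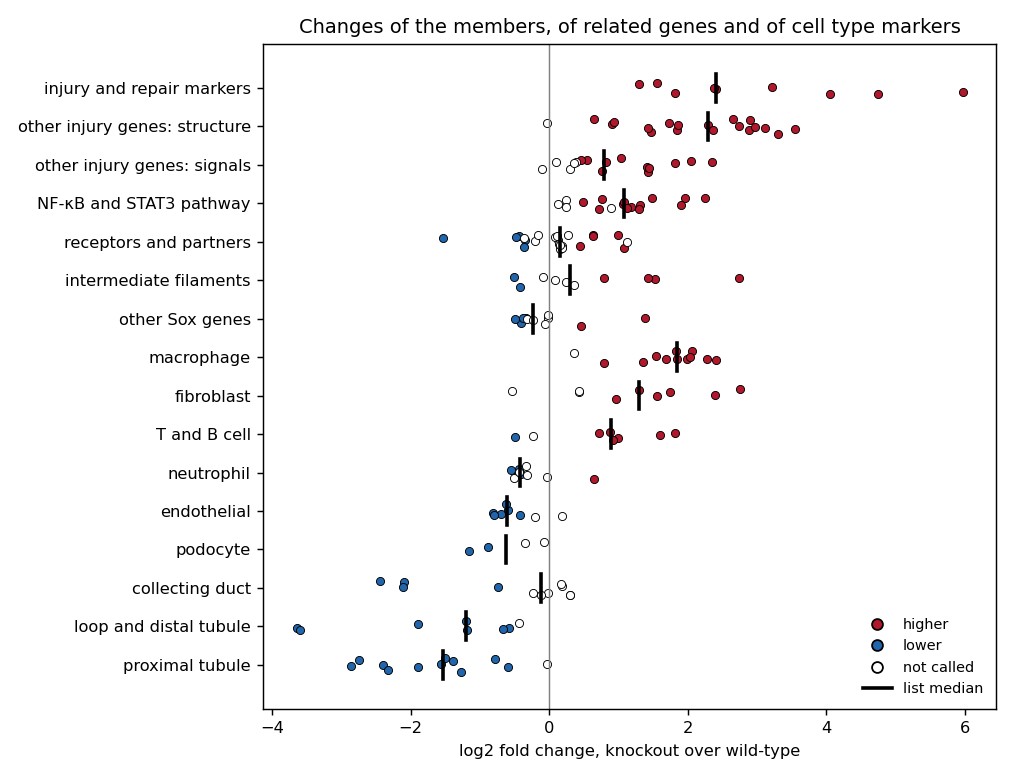
Log2 fold change, knockout over wild-type (horizontal axis), of every measured gene of 16 lists, with red for genes called higher, blue for genes called lower, white for genes not called and a black bar at the list median. The injury and repair markers lie at 1.30 and above with a median of 2.40, and the structural injury genes follow at 2.29. Macrophage markers have a median of 1.84, neutrophil markers one of -0.42 and proximal tubule markers one of -1.53.

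Markers of other cell types moved in the same samples, and their part in the members' changes was not tested. For scale, 21.6% of all genes were called higher and 27.7% lower. Of 12 macrophage markers 11 were higher, led by Mrc1 at 5.28-fold; the list's mean level was 8.61 to 9.31 in knockout samples and 7.19 to 7.46 in wild-type samples. Of 9 fibroblast markers 6 were higher, led by Col3a1 at 6.77-fold, and the mean level was 9.07 to 10.36 in knockout samples and 8.28 to 8.56 in wild-type samples. Both this mean and Vim were lowest in knockout 1 and highest in knockout 3, with spans of 1.28 for the mean and 0.24 for Vim. The same held for the macrophage, collecting duct and endothelial means and for Cd24a. It also held for the means of the structural injury genes, the injury signal genes, and the NF-κB and STAT3 genes, with spans of 0.04, 0.06 and 0.09. Among controls Vim was highest in wild-type 2, whereas the fibroblast mean was highest in wild-type 1 (8.56, against 8.55 in wild-type 2). Without knockout 3 the log2 fold change of Vim was 1.76, and 1 fibroblast marker was called lower. Of 8 T and B cell markers 6 were higher and 1 lower, led by the B cell gene Ms4a1 at 3.52-fold, with mean levels of 6.29 to 6.80 in knockout samples and 5.79 to 5.92 in wild-type samples.

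Neutrophil markers, which include genes stored in the same granules as Lcn2, were mostly lower or not called. Of 10 measured, 4 were lower, 1 higher and 5 did not pass, where 27.7% of all genes were called lower and 21.6% higher. The list's mean level was 5.04 to 5.16 in knockout samples and 5.30 to 5.45 in wild-type samples. The granule genes Camp and Ngp had log2 fold changes of -0.44 and -0.46, and both are named after their values were seen. The 1 higher marker, the granule gene Ltf (1.56-fold, limma adjusted p = 0.0278), was not called without knockout 1, knockout 2, wild-type 2 or wild-type 3. The lower ones numbered 1 without knockout 1 or knockout 3, with quantile normalization, or at an adjusted p of 0.01. RMA gives no detection call and no value of 0, so these dim genes cannot be separated from background.

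Most markers of the proximal tubule and of the loop of Henle and distal tubule were lower, where 27.7% of all genes were called lower. Of 12 proximal tubule markers 11 were lower, led by the amino acid transporter Slc6a19 at 7.29-fold, and the mean level was 10.95 to 11.23 in knockout samples and 12.65 to 12.79 in wild-type samples. Of 8 markers of the loop of Henle and distal tubule 7 were lower, led by Pvalb at 12.5-fold (10.16 to 10.75 in knockout samples and 12.03 to 12.17 in wild-type samples). Of 11 collecting duct markers 4 were lower, led by Slc26a4 at 5.45-fold, none was higher, except 1 without wild-type 2, and 7 did not pass (median -0.12). Of 8 endothelial markers 6 were lower, led by Emcn, which fell 1.76-fold but was not called without knockout 1 (limma adjusted p = 0.0675). Of 4 podocyte markers 2 were lower, led by Nphs1 at 2.24-fold. Wild-type 3, the lowest control for 7 members, had the highest control mean of proximal tubule markers (12.79) and of T and B cell markers (5.92). Its mean was the lowest of the controls for loop and distal tubule, collecting duct, macrophage, fibroblast, endothelial and podocyte markers. Whether these means relate to the members was not tested.

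For each member, the gene whose values were most alike over the 6 arrays was found by the root mean square difference after each gene was centred on its own wild-type mean. Such likeness is mostly set by the size of the change between the groups. For Cd24a it was the pyruvate dehydrogenase kinase gene Pdk1, with a difference of 0.06 on the log2 scale, for Clu the cold shock domain gene Ybx3 (0.06) and for Vim the tyrosine kinase gene Frk (0.08). For Sox4 it was Rcn1, a calcium-binding protein of the endoplasmic reticulum (0.09), for Cd44 the aldo-keto reductase Akr1b8 (0.11), for Sox9 the phosphate transporter Slc34a2 (0.13) and for Vcam1 the sialyltransferase St8sia4 (0.14). The injury markers with the largest changes had no near match. Rbp4, a carrier of retinol, lay 0.42 from Havcr1. It read 11.06, 11.31 and 10.53 in knockout samples, against 5.79, 6.78 and 5.42 in wild-type samples. Wild-type 2 was its highest control, as for Havcr1. The immunoglobulin gene Igk lay 0.72 from Lcn2, with 12.36, 12.37 and 11.62 in knockout samples, against 8.38, 5.99 and 6.40 in wild-type samples. Wild-type 1 was its highest control, as for Lcn2. The search used these same arrays, so it favours genes whose controls run alike. Some of these matches depend on the probe set: with the mean of all probe sets, log2 fold changes were 1.96 for Igk, 1.88 for St8sia4, 1.16 for Rcn1 and 0.79 for Pdk1, against 5.19, 3.26, 2.46 and 1.27 with the brightest.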

How the data were processed

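The authors deposited 1 table of log2 expression values for 45101 probe sets in 6 samples. The values were made with RMA, per the submitters' processing notes, which corrects background, normalises arrays and summarises probes; the notes used here give neither a version nor a chip definition. That they are log2 was read from the range, 2.90 to 14.82. Array medians were 6.20 to 6.25. No counting depth exists for arrays, and the 3 samples per group limit the precision.

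Of 34945 probe sets with 1 gene in the platform annotation, which can be old, 34741 took their current symbol from RefSeq (GRCm38.p6). The annotation lists several genes for 932 probe sets and no gene for 9160, which were not used. Choosing the brightest probe set over both groups favours probe sets that are high in either group. The groups were fitted in R 4.3.3 by limma 3.58.1 (functions lmFit and eBayes) without covariates or a filter on dim genes, and the fit was tested on simulated data. Fold changes are 2 to the power of the log2 difference. The alternatives tried were averaging a gene's probe sets, the brighter genes, other priors, centring, normalization, weights and thresholds, a replicate block, and each array left out. Tables and plots used Python 3.11.15.

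The members and lists were chosen with earlier results of these data known, so counts over them are descriptions. All 10 members were to be named. Each list gave its 4 largest called increases and 2 largest called decreases, and each cell type list its largest called change. Promoters were available here for 5 members, of which Havcr1 has 3 start sites.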

Additional observations from a re-analysis of the deposited data

How the results depend on the processing

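Each member kept its direction and its call in all 116 alternative fits of a single member (13 for each, 12 for Sox9, which is below the median signal), with limma adjusted p from 4.12e-06 to 0.00596. The 9 members were called higher and 0 lower under every alternative, except that 8 were tested and called in the brighter set of genes, from the median signal up. The probe sets used moved single values most, as given for Cd44, Sox9 and Sox4. Over all genes, the calls lower in the knockout numbered 2334 among the brighter genes (which tests fewer genes), 2371 at an adjusted p of 0.01 and 617 at 2-fold or more, where 990 were higher. Leaving out 1 array gave 3160 (without knockout 1) to 4810 lower calls and 3113 to 3860 higher ones; without knockout 3 there were 3279 lower. Fewer samples were fitted in these. With the number of the sample as a replicate block, 3510 genes were higher and 3930 lower, and all 9 members were called. Same-numbered samples did not deviate together (Pearson's r over genes of -0.099, -0.126 and -0.125). The labels do not say whether the numbers pair the samples, and a lack of shared deviation cannot settle it. Of 450 counts of calls in the lists under alternatives, 52 moved by more than 1.5 times. Signal over background cannot be judged without detection calls, which limits dim probe sets such as those of Cd44, Sox9 and Sox4 that were not called higher.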
